A study of Mus musculus with 11 samples.

Results

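The *Cyp2c* genes encode cytochromes P450 of the endoplasmic reticulum, and 10 of them were followed here in mouse liver: *Cyp2c29*, *Cyp2c37*, *Cyp2c40*, *Cyp2c44*, *Cyp2c50*, *Cyp2c54*, *Cyp2c67*, *Cyp2c68*, *Cyp2c69* and *Cyp2c70*. They are 10 of the 13669 genes in the count table. Of these, 9 were found by their symbol, and *Cyp2c44* is listed under its RefSeq name *Cyp2c23*. The genes were selected on the counts themselves, in which several near-identical copies were lower after the treatment, so their differences between the groups are given below as a description.

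P450 enzymes take electrons from NADPH through the reductase POR, or from cytochrome b5, and insert oxygen into lipids, hormones and drugs. Members of the Cyp2c subfamily are known in liver for converting arachidonic acid to epoxides and hydroxylated products. Their genes lie in a tandem cluster, in which recent duplications have left groups of copies that differ at few positions, and many of them are expressed in the hepatocytes around the central vein.

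Wild-type C57BL/6J male mice on regular chow received a recombinant adeno-associated virus expressing either a negative control sequence (AAV-NC, 5 livers, numbered 1, 2, 6, 7 and 8) or a tough decoy (AAV-TuD, 6 livers, numbered 3, 4, 5, 9, 10 and 11). The decoy is a hairpin RNA that binds *miR-379* and *miR-541*. In the study's methods the liver-specific LP1 promoter drove expression, whereas the RNA came from whole liver, where fewer cells of a type and less RNA per cell cannot be told apart. The libraries read the 3′ end of transcripts, so that levels in CPM, the reads of a gene relative to all counted reads, do not scale with transcript length.

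The gene counts summed to 8148531 to 12043959 reads in a liver, and the 10 members took 0.123% to 0.179% of them. Transcripts of the *Mup* genes, which encode the major urinary proteins, took 8.09% to 38.6%, with the highest shares in AAV-NC 7, AAV-TuD 3 and AAV-TuD 5. CPM were therefore scaled by TMM, with factors from 0.667 to 1.24. In AAV-NC 8, *Cyp2c37*, *Cyp2c50* and *Cyp2c54* stood apart from the other livers, and results that rest on this liver are given with and without it.

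All 10 genes lie on chromosome 19 and have 9 exons each in GENCODE M21 (mouse genome GRCm38). Their coding sequences formed 2 groups of close copies. *Cyp2c40* (chr19:39767071-39812814), *Cyp2c67* (chr19:39608842-39649051), *Cyp2c68* (chr19:39688834-39741054) and *Cyp2c69* (chr19:39842814-39886799) were 96.5% to 98.1% identical in aligned coding bases, and at most 79.7% identical to any other *Cyp2c* gene. *Cyp2c37* (chr19:39992424-40012243), *Cyp2c50* (chr19:40089688-40113950) and *Cyp2c54* (chr19:40037940-40073827) were 95.1% to 96.1% identical, and at most 83.6% identical to the others. *Cyp2c29* (chr19:39269405-39330713) reached 89.1% with *Cyp2c38*, which is no member. *Cyp2c70* (chr19:40153353-40187333) and *Cyp2c44* (chr19:44005022-44029208) reached 71.0% and 68.1%.

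The last 120 coding bases before the stop codon, all within exon 9, show how little separates the copies. They are printed 5′ to 3′ from the GENCODE M21 models, with capitals at positions where the copies of a group are not all the same. There were 7 such positions among *Cyp2c40*, *Cyp2c67*, *Cyp2c68* and *Cyp2c69*.
*Cyp2c67*, chr19:39609080-39609199, minus strand: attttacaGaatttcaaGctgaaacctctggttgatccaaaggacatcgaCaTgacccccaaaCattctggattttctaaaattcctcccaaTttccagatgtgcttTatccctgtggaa
*Cyp2c68*, chr19:39689072-39689191, minus strand: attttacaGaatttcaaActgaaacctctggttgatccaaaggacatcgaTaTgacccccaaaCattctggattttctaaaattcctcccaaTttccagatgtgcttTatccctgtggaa
*Cyp2c40*, chr19:39767309-39767428, minus strand: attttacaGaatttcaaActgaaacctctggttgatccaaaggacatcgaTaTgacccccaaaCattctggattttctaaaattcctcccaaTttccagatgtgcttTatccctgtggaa
*Cyp2c69*, chr19:39842895-39843014, minus strand: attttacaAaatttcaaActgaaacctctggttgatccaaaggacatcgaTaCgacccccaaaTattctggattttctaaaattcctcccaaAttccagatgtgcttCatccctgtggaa

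The same stretch held 3 such positions among *Cyp2c37*, *Cyp2c50* and *Cyp2c54*.
*Cyp2c37*, chr19:40011786-40011905, plus strand: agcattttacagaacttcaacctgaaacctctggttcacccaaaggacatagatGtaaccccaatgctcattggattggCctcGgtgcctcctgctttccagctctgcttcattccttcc
*Cyp2c54*, chr19:40038240-40038359, minus strand: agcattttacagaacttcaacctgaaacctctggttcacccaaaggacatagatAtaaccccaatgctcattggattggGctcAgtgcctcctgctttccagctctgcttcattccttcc
*Cyp2c50*, chr19:40113493-40113612, plus strand: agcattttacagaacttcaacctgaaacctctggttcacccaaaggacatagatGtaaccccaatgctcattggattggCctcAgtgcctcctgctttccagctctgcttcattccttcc

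This likeness bears on the counts. Of all 75-base windows in the last 500 bases of each transcript, 61.1% in the *Cyp2c40/67/68/69* group occurred in no other annotated gene. The share was lowest for *Cyp2c40*, with 39.0%, and 66.7% to 71.6% for *Cyp2c67*, *Cyp2c68* and *Cyp2c69*. In the *Cyp2c37/50/54* group 87.4% of windows were unique, and in *Cyp2c29*, *Cyp2c70* and *Cyp2c44* all windows were. The paper names Rsubread for counting, but how reads that match several genes were treated is not given in the sources used here. For *Rps6* and its pseudogene *Rps6-ps4*, chosen after seeing the data, 28994 and 29995 reads were counted over the 11 livers. Per *Rps6* read, a liver had 1.01 to 1.06 reads at the pseudogene. For *Cyp2c53-ps* and *Cyp2c72-ps*, chosen likewise, 410 and 353 reads were counted, at 0.6 to 0.943 reads of the second per read of the first. Whether the same reads were counted at both copies was not tested. Levels of single copies in the close groups are therefore uncertain, and sums over a group were examined beside them.

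With AAV-TuD, 5 of the 10 members were lower and 0 higher at an adjusted p under 0.05 in edgeR's quasi-likelihood test (0 higher also in DESeq2 and limma-voom), whereas 4.33% of the 13334 genes tested were lower and 7.24% higher. Every AAV-TuD liver lay below every AAV-NC liver for 4 members, as for 3.28% of the genes tested. These counts describe the choice of the genes, which was made on this contrast. The median log2 fold change was -1.06 in the *Cyp2c40/67/68/69* group, -0.59 in the *Cyp2c37/50/54* group, -0.27 over *Cyp2c29*, *Cyp2c70* and *Cyp2c44*, and -0.00 over all genes tested.

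**Figure D1:**
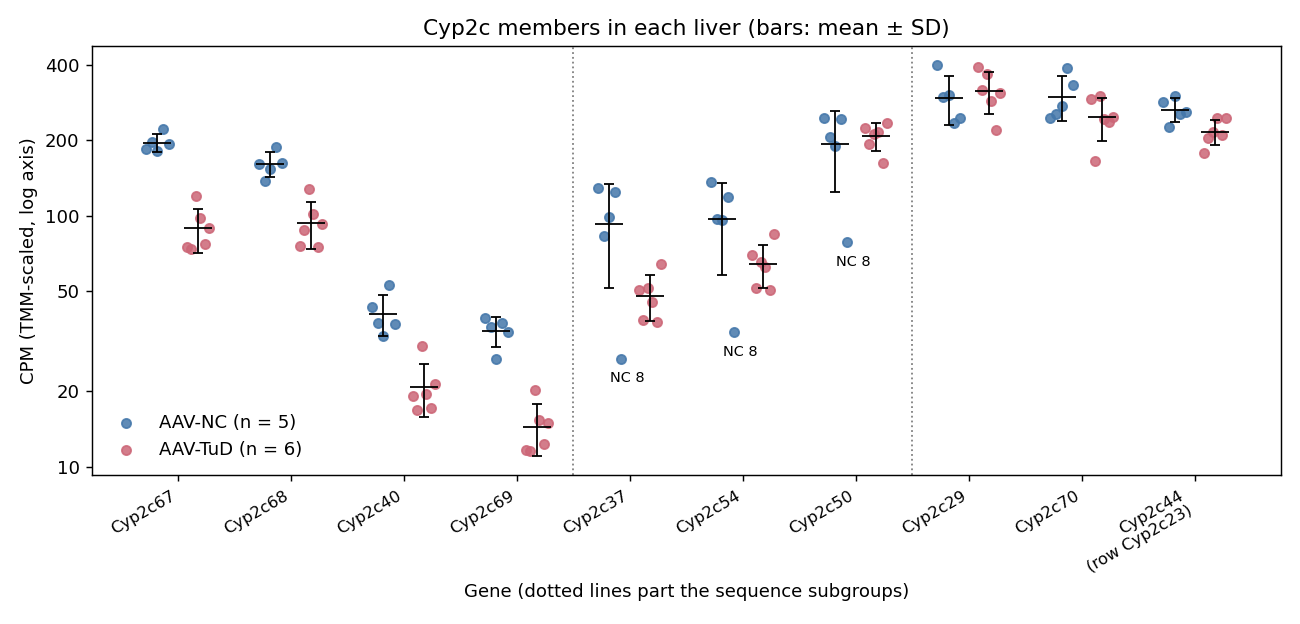
Levels of the 10 members in each liver, in TMM-scaled CPM on a log axis. Points are livers (AAV-NC, n = 5, blue; AAV-TuD, n = 6, red) and bars the mean ± SD. The groups are separate for *Cyp2c67*, *Cyp2c68*, *Cyp2c40* and *Cyp2c69*, and AAV-NC 8 is the lowest liver for *Cyp2c37*, *Cyp2c54* and *Cyp2c50*.

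*Cyp2c67* had the highest level of its group in AAV-NC livers, at 184, 198, 182, 223 and 193 CPM in livers 1, 2, 6, 7 and 8. In AAV-TuD livers it lay between 73.8 and 120 CPM, with a median of 83.5. The groups did not overlap, and AAV-TuD 5 was the highest of the treated livers. The mean went from 196 ± 16.5 (SD, n = 5) to 89.1 ± 17.9 (SD, n = 6) CPM, a log2 fold change of -1.14 (SE 0.12, edgeR adjusted p = 4.45e-05).

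*Cyp2c68* had 161, 138, 154, 189 and 163 CPM in the AAV-NC livers, in the same order. With AAV-TuD it lay between 75.2 and 128 CPM, with a median of 90.3. The groups again did not overlap, while the difference was the smallest of the 4 copies, at -0.78 on the log2 scale (SE 0.12, edgeR adjusted p = 0.00133).

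*Cyp2c40*, which encodes an arachidonic acid oxygenase, was less abundant, with 43.2, 37.4, 33.3, 53.1 and 37.0 CPM in the AAV-NC livers. It lay between 16.9 and 30.3 CPM with AAV-TuD, with a median of 19.3, where AAV-TuD 5 was the highest and all others were at or below 21.4 CPM. The log2 fold change was -0.98 (SE 0.15, edgeR adjusted p = 0.00106). *Cyp2c69* was the least abundant member, with 39.3, 36.0, 26.8, 37.3 and 34.6 CPM in the AAV-NC livers. It lay between 11.6 and 20.3 CPM with AAV-TuD, with a median of 13.7. Its log2 fold change of -1.27 (SE 0.14, edgeR adjusted p = 8.12e-05) had the largest size among the members, and neither gene had overlapping groups. The annotated *Cyp2c69* transcript ends 81 bases after the last coding base, and those of *Cyp2c40*, *Cyp2c67* and *Cyp2c68* end 238 bases after it. Whether *Cyp2c69* reads beyond its annotated end went uncounted was not tested.

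A sum over the 4 copies does not depend on how reads were divided among them. Reads assigned to several copies would count repeatedly in it, and reads dropped for matching several copies would be missing from it. Summed in this way, the level was 428, 409.8, 396, 502 and 428 CPM in AAV-NC livers 1, 2, 6, 7 and 8. It was between 182 and 299 CPM with AAV-TuD, with a median of 204. The treated livers therefore held 50.3% of the control level, a log2 fold change of -0.99 (SE 0.12, edgeR adjusted p = 2.13e-04), and all 6 lay below all 5 controls. When counts were scaled by library size alone, the log2 fold change was -0.76 (SE 0.16, edgeR adjusted p = 0.00129), where the median of all genes moved to 0.23 and 71 genes, or 0.532% of those tested, were lower.

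*Cyp2c37* and *Cyp2c54*, which encode oxygenases of arachidonic and linoleic acid, and *Cyp2c50* shared the low liver AAV-NC 8. *Cyp2c37* had 129, 83.3, 99.4, 125 and 27.0 CPM in AAV-NC livers 1, 2, 6, 7 and 8, and 37.9 to 64.4 CPM with AAV-TuD, with a median of 48.0. All treated livers lay below the other 4 control livers and above AAV-NC 8. The log2 fold change was -0.95 (SE 0.28, edgeR adjusted p = 0.0365), and without AAV-NC 8 it was -1.19 (SE 0.15, adjusted p = 3.89e-04). It did not pass in limma-voom (adjusted p = 0.0715), nor when any of AAV-NC 1, 2, 6 and 7 or AAV-TuD 4, 5, 9 and 10 was left out, with edgeR adjusted p values of up to 0.1.

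*Cyp2c54* had 137, 97.2, 96.6, 119 and 34.4 CPM in the AAV-NC livers and 50.6 to 84.4 CPM with AAV-TuD, with a median of 64.2. Its treated livers likewise lay between AAV-NC 8 and the other control livers. The log2 fold change of -0.59 (SE 0.24, edgeR adjusted p = 0.13) did not pass the test with all livers, and without AAV-NC 8 it was -0.81 (SE 0.14, adjusted p = 0.00316).

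*Cyp2c50*, the most abundant of the 3, had 246, 207, 190.5, 243 and 78.5 CPM in the AAV-NC livers. It had 162 to 235 CPM with AAV-TuD, with a median of 215. The groups overlapped, with a log2 fold change of 0.11 (SE 0.21, edgeR adjusted p = 0.803) and of -0.10 (SE 0.11, adjusted p = 0.639) without AAV-NC 8. The sum over the 3 genes was 383 ± 147 CPM (SD, n = 5) in AAV-NC and 319.6 ± 47.2 CPM (SD, n = 6) in AAV-TuD livers, with a log2 fold change of -0.26 (SE 0.23, edgeR adjusted p = 0.518). Without AAV-NC 8 that difference was -0.47 (SE 0.12, adjusted p = 0.0232).

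The members with no close copy among the 10 overlapped between the groups. *Cyp2c29*, an abundant epoxygenase gene that phenobarbital induces through the receptor CAR, had 398, 298, 304, 235 and 245 CPM in the AAV-NC livers. With AAV-TuD it had 219.8 to 391 CPM, with a median of 313, and a log2 fold change of 0.09 (SE 0.15, edgeR adjusted p = 0.753).

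*Cyp2c70*, whose enzyme makes the muricholic acids of mouse bile, had 245, 255, 274, 389 and 333 CPM in the AAV-NC livers. With AAV-TuD it had 165 to 301 CPM, with a median of 246, and a log2 fold change of -0.27 (SE 0.15, edgeR adjusted p = 0.258). *Cyp2c44*, an arachidonic acid epoxygenase gene, had 284, 227, 302, 255 and 259 CPM in the AAV-NC livers and 179 to 245 CPM with AAV-TuD, with a median of 214. Of its treated livers 4 were below every control liver, and the log2 fold change was -0.29 (SE 0.09, edgeR adjusted p = 0.055), on the edge of the threshold. With library size alone, the differences of *Cyp2c70* and *Cyp2c44* were -0.04 and -0.05.

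**Figure D2:**
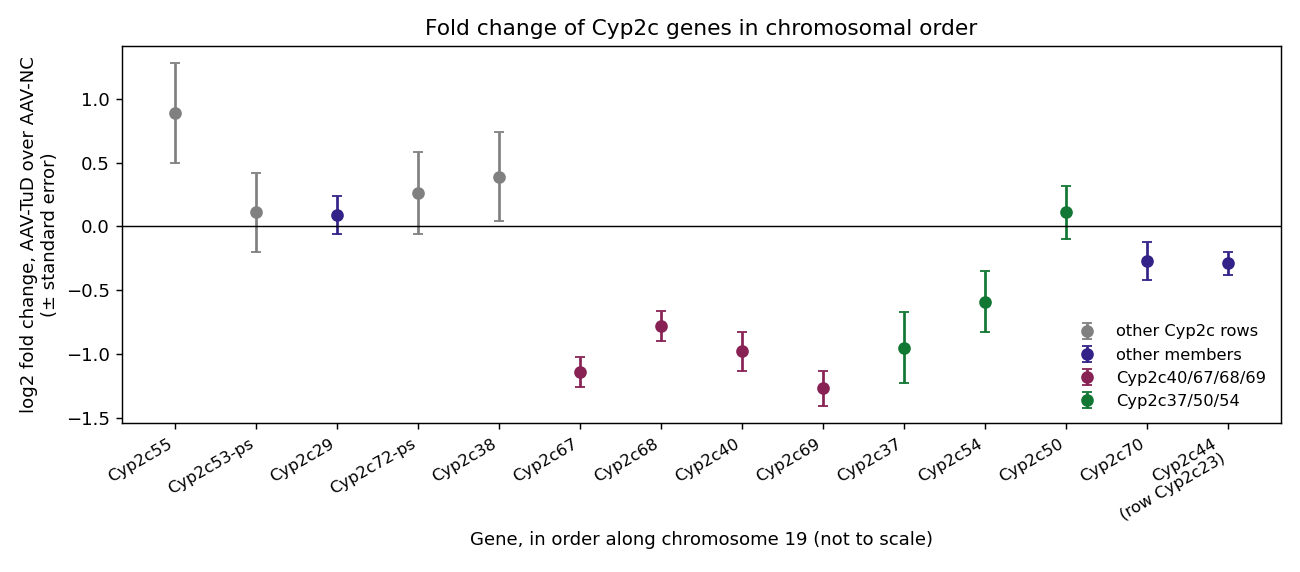
Log2 fold change of AAV-TuD over AAV-NC (points, with bars for the standard error) for the 14 *Cyp2c* rows tested, in their order along chromosome 19. *Cyp2c67*, *Cyp2c68*, *Cyp2c40* and *Cyp2c69* are neighbours with values of -0.78 to -1.27, followed by *Cyp2c37* (-0.95), *Cyp2c54* (-0.59) and *Cyp2c50* (0.11).

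Along the chromosome, the 4 close copies are neighbours among the tested *Cyp2c* genes, and all are on the minus strand. *Cyp2c37* comes next, on the plus strand, followed by *Cyp2c54* on the minus and *Cyp2c50* on the plus strand. The other 4 *Cyp2c* rows of the table were low, between 0.775 and 11.5 CPM over all livers, and none passed the test in edgeR, in DESeq2 or in limma-voom. Of these, *Cyp2c38*, between *Cyp2c29* and *Cyp2c67*, had a log2 fold change of 0.39 (SE 0.35), and *Cyp2c55*, the only 1 of the 4 with an unadjusted p under 0.05, had 0.89 (SE 0.39, edgeR adjusted p = 0.159). The pseudogenes *Cyp2c53-ps* and *Cyp2c72-ps* had 0.11 (SE 0.31) and 0.26 (SE 0.32), and *Cyp2c53-ps* overlaps the annotated *Cyp2c29* gene.

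Levels of different members were set side by side, since 3′ reads do not scale with transcript length, although those of close copies are uncertain because of shared reads. The level of *Cyp2c69* may also depend on where its transcript is annotated to end. In AAV-NC livers the order of the means was *Cyp2c70* (299 CPM), *Cyp2c29* (296), *Cyp2c44* (265), *Cyp2c67* (196), *Cyp2c50* (193), *Cyp2c68* (161), *Cyp2c54* (96.9), *Cyp2c37* (92.8), *Cyp2c40* (40.8) and *Cyp2c69* (34.8). Neighbours in this order overlapped in their livers, except *Cyp2c44* above *Cyp2c67* and *Cyp2c68* above *Cyp2c54*. Without AAV-NC 8 *Cyp2c29* (309 CPM) stood before *Cyp2c70* (291) and *Cyp2c50* (222) before *Cyp2c67* (197), and the neighbours that did not overlap were *Cyp2c68* above *Cyp2c54* and *Cyp2c37* above *Cyp2c40*. In AAV-TuD livers *Cyp2c50* had a mean of 207 ± 26.4 CPM (SD, n = 6), above *Cyp2c67* with 89.1 ± 17.9 and *Cyp2c68* with 93.7 ± 19.7.

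The ratio of reads within a liver needs no scaling between livers. The *Cyp2c40/67/68/69* group had 0.45 to 0.571 reads per read of *Cyp2c29*, *Cyp2c70* and *Cyp2c44* together in AAV-NC livers, and 0.212 to 0.337 in AAV-TuD livers. These ranges did not overlap. For the *Cyp2c37/50/54* group the ratio was 0.439 to 0.555 in AAV-NC livers 1, 2, 6 and 7, 0.167 in AAV-NC 8 and 0.372 to 0.479 in AAV-TuD livers.

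Within each group of copies the composition also differed. *Cyp2c50* took 48.0%, 53.5%, 49.3%, 49.9% and 56.1% of the reads of its group in AAV-NC livers 1, 2, 6, 7 and 8, and 61.3% to 68.2% in AAV-TuD livers. *Cyp2c37* went from 23.5% ± 2.93 (SD, n = 5) to 14.9% ± 1.18 (SD, n = 6). *Cyp2c54* took 24.5% to 26.8% in AAV-NC and 18.2% to 22.0% in AAV-TuD livers. None of these 3 shares overlapped between the groups. AAV-NC 8 lay outside the treated range in its shares, although its summed level was the lowest of all livers. It was the control nearest to the treated livers for *Cyp2c37* (19.3%) and *Cyp2c50* (56.1%), and had 24.6% for *Cyp2c54*.

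In the *Cyp2c40/67/68/69* group, *Cyp2c67* went from 45.4% ± 1.98 to 40.9% ± 1.30 and *Cyp2c68* from 37.2% ± 2.02 to 43.0% ± 1.74 (SD, n = 5 and n = 6), both without overlap. *Cyp2c40* took 9.37% ± 0.934 and 9.48% ± 0.807. *Cyp2c69* took 8.05% ± 0.98 and 6.58% ± 0.295, with overlap between 6.77% and 6.88%. These shares depend on how reads matching several copies were counted, come from the contrast that chose the genes and were not tested.

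**Figure D3:**
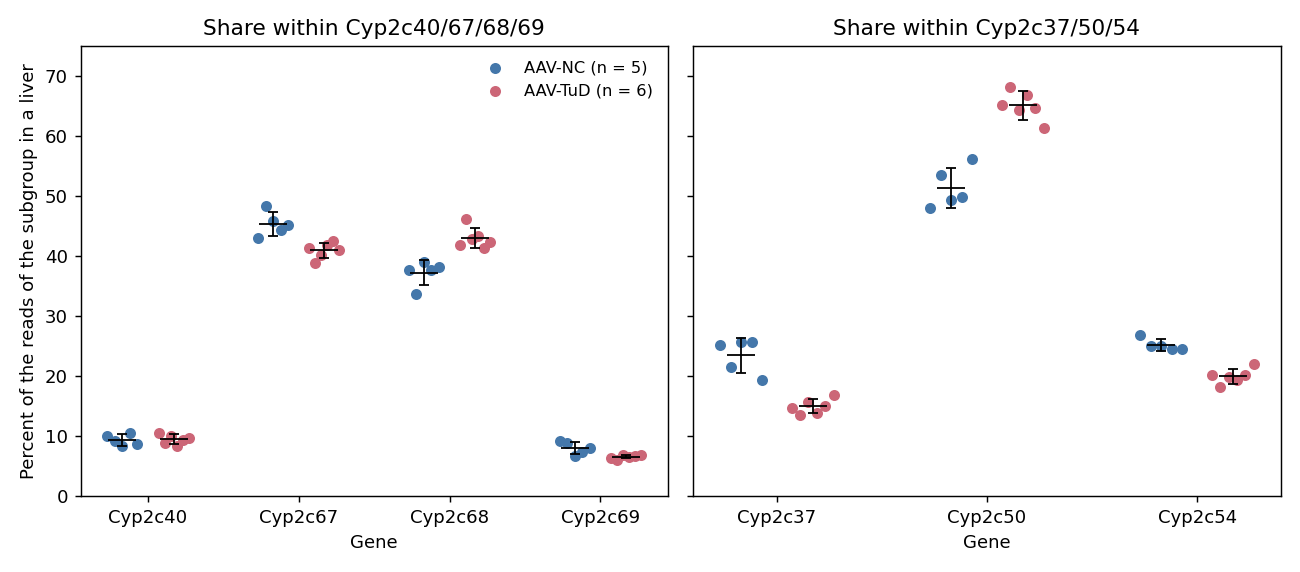
Share of each gene in the reads of its group of close copies, in percent, for each liver (points) with mean ± SD (bars). All 3 shares of the *Cyp2c37/50/54* group and those of *Cyp2c67* and *Cyp2c68* are separate between AAV-NC (n = 5, blue) and AAV-TuD (n = 6, red). The *Cyp2c50* share is 48.0% to 56.1% in AAV-NC and 61.3% to 68.2% in AAV-TuD livers.

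Variation between livers of the same treatment was not used in choosing the genes. After subtraction of the group means from log2 CPM, the 45 pairs of members were compared over the 11 livers, which were prepared with the same library kit. Within the *Cyp2c40/67/68/69* group Pearson's r was 0.77 to 0.88 and Spearman's rho 0.66 to 0.90. In an exact permutation test of livers within groups, the p values for r were 0.00138 to 0.0149, with Benjamini-Hochberg adjusted values of 0.0155 to 0.0745, and 5 of the 6 pairs stayed under 0.05. For rho the adjusted p values of the same permutation test were 0.0113 to 0.175, and that of 1 of the 6 pairs, *Cyp2c40* with *Cyp2c69*, was under 0.05. Without the 2 livers farthest from the median r was 0.40 to 0.84, so the relation of *Cyp2c40* with *Cyp2c67* and *Cyp2c68*, at 0.49 and 0.40, rests in part on those livers.

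Within the *Cyp2c37/50/54* group r was 0.97 to 0.99 and rho 0.85 to 0.96 (exact permutation test, p values for r 3.47e-05 to 6.37e-04, adjusted 0.00156 to 0.00955, and adjusted p values for rho 0.00313 to 0.0654). Without AAV-NC 8 r was still 0.83 to 0.95. Between the 2 groups of copies r was 0.11 to 0.41, with adjusted p values of 0.62 to 0.844 from the permutation test, and 0.30 to 0.63 without AAV-NC 8. The 24 pairs with *Cyp2c29*, *Cyp2c70* or *Cyp2c44* had r of -0.17 to 0.61, none with an adjusted p under 0.05. Reads shared between copies also raise r within a group, and their part was not tested.

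**Figure D4:**
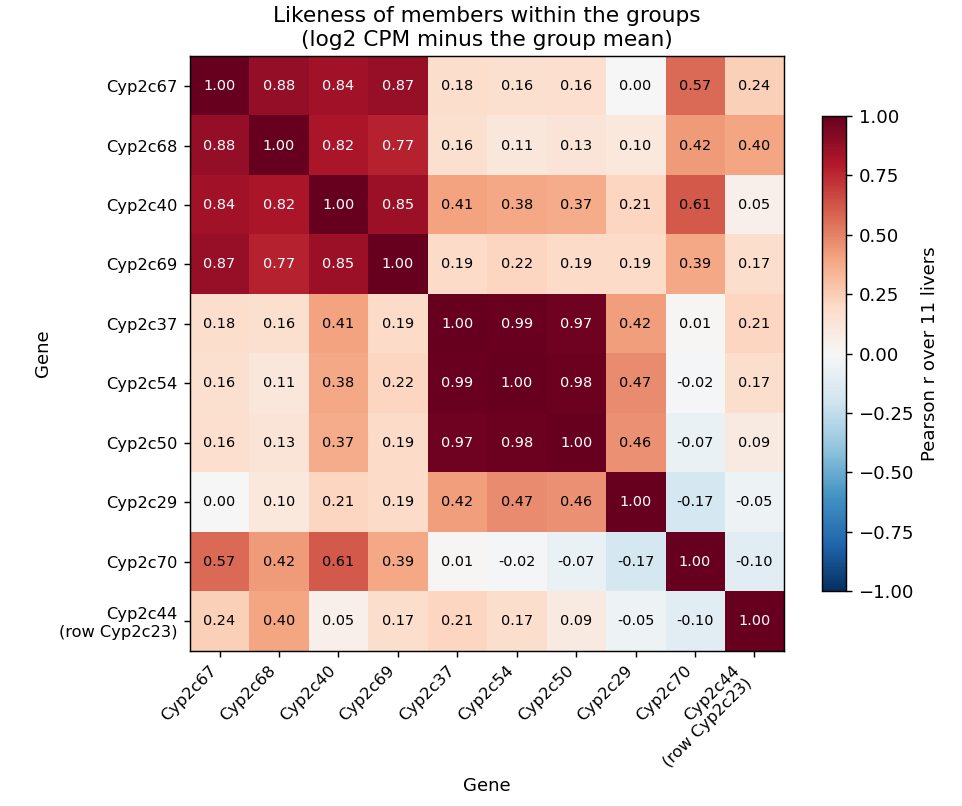
Pearson's r between members over 11 livers, on log2 CPM minus the mean of the treatment group. The 2 blocks of high r are *Cyp2c67*, *Cyp2c68*, *Cyp2c40* and *Cyp2c69* (0.77 to 0.88) and *Cyp2c37*, *Cyp2c54* and *Cyp2c50* (0.97 to 0.99).

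Outside the family, the genes most like the summed *Cyp2c40/67/68/69* level in these deviations were *Zfp768* (r = 0.89), *Lrrc3* (0.88), *Eif3h* (0.87), *Wdr77* (0.87) and *Alkbh7* (0.85), the highest of 8316 genes. An r picked as the highest among so many genes over 11 livers can be large by chance. Neither this list nor the next was tested for that. Of the 5 genes above, *Lrrc3* alone differed between the treatments, with a log2 fold change of -0.42 (edgeR adjusted p = 0.0064). For the summed *Cyp2c37/50/54* level, a list drawn up after seeing AAV-NC 8, they were *Slc35d2* (r = 0.93), *St3gal5*, *Pon1*, *Slc25a20* and *Glul* (0.92 each). Without AAV-NC 8 their r was 0.72, 0.84, 0.75, 0.84 and 0.68. *Glul*, the glutamine synthetase of the hepatocytes next to the central vein, had 165 CPM in AAV-NC 8 and 361 to 469 CPM in the other AAV-NC livers.

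Relative to the lowest of the other AAV-NC livers, *Cyp2c37*, *Cyp2c54* and *Cyp2c50* ranked 2, 3 and 4 among 3926 genes for their low level in AAV-NC 8, at ratios of 0.324, 0.356 and 0.412. *Serpina12* ranked 1, with a ratio of 0.205. The summed level of the 18 pericentral genes was 3397 CPM in AAV-NC 8, at least 4558 CPM in the other AAV-NC livers and 4104 to 4907 CPM in the AAV-TuD livers. Its part in the low level of the 3 genes was not tested.

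Promoter sequences (250 bases before to 50 bases after the start site) were found in RefSeq (GRCm38.p6) for 8 members, and *Cyp2c54* and *Cyp2c44* had no entry in the table. Aligned promoter bases of the *Cyp2c40/67/68/69* group were 91.6% to 98.9% identical, and those of *Cyp2c37* and *Cyp2c50* 89.5%. On both strands, CAAAGTCCA, letters bound by the hepatocyte factor HNF4A, occurred in 5 of the 10 *Cyp2c* promoters, and in 0.5% of 32851 promoters. These 5 belong to the 4 close copies and to *Cyp2c70*. As the promoters of the 4 copies are nearly the same, their matches are not independent of each other. The share over all promoters is therefore no measure of enrichment, and a link of the match to the levels was not tested. They are shown 5′ to 3′ because all 4 copies of the *Cyp2c40/67/68/69* group carry this match, while *Cyp2c37*, which was also lower, does not. They are printed with the matched letters in capitals and 30 bases on either side.
*Cyp2c67*, chr19:39649129-39649197, minus strand: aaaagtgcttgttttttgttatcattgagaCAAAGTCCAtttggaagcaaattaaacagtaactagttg
*Cyp2c68*, chr19:39741140-39741208, minus strand: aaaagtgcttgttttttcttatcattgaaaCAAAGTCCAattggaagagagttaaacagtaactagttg
*Cyp2c40*, chr19:39812821-39812889, minus strand: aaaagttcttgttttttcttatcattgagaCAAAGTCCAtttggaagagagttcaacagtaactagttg
*Cyp2c69*, chr19:39886806-39886874, minus strand: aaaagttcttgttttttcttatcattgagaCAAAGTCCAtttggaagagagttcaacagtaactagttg
*Cyp2c70*, chr19:40187312-40187380, minus strand: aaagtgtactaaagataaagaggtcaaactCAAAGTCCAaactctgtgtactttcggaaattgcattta

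The other motifs given here were also read on both strands, and close copies are again counted separately though not independent. TATAAA was found in 7 of the 10 *Cyp2c* promoters (13.6% of all promoters), TTGCNNAA, bound by C/EBP factors, in 4 (10.8%), and AGTTCA (CAR and PXR) in 3 (14.0%). TGTTTAC (FOXA) was found in 1 (3.6%) and TTCNNNGAA (STAT5) in 0 (8.3%). None of these matches overlapped CAAAGTCCA. A match describes the letters in this window, and *Cyp2c70*, which has the HNF4A letters, did not pass the test. The seeds (bases 2 to 8) of the 5p arms of *miR-379* and *miR-541* had no match in any member, in its annotated coding sequence or 3′ UTR. Other miRNAs encoded beside them, which the paper reported as also lowered by the decoy, were not searched.

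*Hnf4a* itself had 154 ± 20.6 CPM (SD, n = 5) in AAV-NC and 119 ± 10.7 CPM (SD, n = 6) in AAV-TuD livers, a log2 fold change of -0.38 (edgeR adjusted p = 0.015) with overlap between the groups. Of 20 liver transcription factors, 2 were lower, *Hnf4a* and *Foxa3* (-0.54), and 2 higher, *Nr0b2* (1.02) and *Nfe2l2* (0.69). Of 9 growth hormone and STAT5 pathway genes 0 passed in edgeR, DESeq2 or limma-voom, and 1 had an unadjusted p under 0.05. Among them *Socs2* had -1.38 (SE 0.51, edgeR adjusted p = 0.0912) and *Cish* -1.19 (SE 0.73, edgeR adjusted p = 0.327). Both varied widely in AAV-NC livers, from 4.26 to 63.3 and from 0.501 to 23.9 CPM. The remaining genes lay between -0.18 and 0.26. The median log2 fold change was -0.13 over the transcription factors and 0.10 over the growth hormone and STAT5 genes.

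Genes listed for electron transfer and for heme synthesis were compared next, and whether each of them acts with the Cyp2c enzymes was not tested. Of 6 electron transfer genes 2 were lower: *Pgrmc1*, a heme-binding P450 partner, with 412 ± 39.8 CPM (SD, n = 5) in AAV-NC and 329 ± 18.2 CPM (SD, n = 6) in AAV-TuD livers (log2 fold change -0.33, edgeR adjusted p = 0.0125), and *Cyb5b* (-0.29). The reductase gene *Por* had 158 ± 27.5 and 148 ± 32.9 CPM (-0.09, adjusted p = 0.743), while *Cyb5a*, *Cyb5r3* and *Pgrmc2* had -0.17, 0.09 and 0.08. Of 8 heme synthesis genes *Fech*, which inserts the iron, was lower (-0.20), while *Alas1*, the gene of the rate-limiting enzyme, had -0.72 (SE 0.44, edgeR adjusted p = 0.323). Of the 2 epoxide hydrolase genes tested 0 passed in edgeR, DESeq2 or limma-voom, and 0 had an unadjusted p under 0.05. The median log2 fold change was -0.13 for electron transfer, 0.02 for heme synthesis and 0.02 for the epoxide hydrolases.

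Of 13 other P450 genes acting on arachidonic acid, 3 were lower, *Cyp4f13* (-0.40), *Cyp4f14* (-0.39) and *Cyp4f15* (-0.26), and 2 higher, *Cyp2j6* (0.67) and *Cyp4f16* (1.83). *Cyp4f16* was near the limit of the filter, with means of 0.445 and 1.66 CPM and 10 or fewer reads in every AAV-NC liver, and it entered the test only through the AAV-TuD livers. Of 11 bile acid synthesis genes, among which *Cyp2c70* acts, *Cyp27a1* was lower (-0.44). Of 18 targets of the receptors CAR and PXR, *Cyp3a11* was higher (0.64), whereas *Ces2a* (-0.77), *Sult1a1* (-0.50) and *Cyp3a13* (-0.27) were lower. Of 19 genes known as higher in male liver 5 were lower, among them *Keg1* (-0.98), *Slco1a1* (-1.12) and *Ugt2b1* (-0.71), and *Mup20* was higher (0.89). Of 13 genes known as higher in female liver 4 were higher, among them *Prom1* (1.66), *Ntrk2* (2.17) and *Rtn4* (0.85), and *Cyp17a1* was lower (-1.54), whereas 2 of the 10 with over 10 reads in each AAV-NC liver were higher, *Ntrk2* and *Prom1* not being among these. The medians were -0.06 over the arachidonic acid P450 genes, -0.28 over bile acid synthesis and -0.06 over the CAR and PXR targets. They were -0.34 over the male genes and 0.57 over the female genes tested. The female median was the value of *Cyp3a16*. This gene, *Cyp3a41a*, *Cyp3a41b* and *Cyp3a44* lay at 0.54 to 0.62, and none of them passed (edgeR adjusted p = 0.0522 to 0.142). Their levels were low, with AAV-NC means of 3.48 to 4.62 CPM, and reads shared among *Cyp3a* genes were not examined. Except for these *Cyp3a* genes, the values of named genes are log2 fold changes at an edgeR adjusted p under 0.05. With library size alone 8 genes of all lists were lower and 52 higher, against 20 and 34 with TMM.

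The zonal and cell type markers were compared as lists. Of 18 pericentral genes *Oat* was higher (0.53) and *Cyp27a1* lower, with a median log2 fold change of -0.01, and of 11 periportal genes *Cdh1* was higher (0.39) and *Sult5a1* lower (-1.60). Of 10 hepatocyte genes *Apob* was lower (-0.40), and their summed level was 47405 to 54362 CPM in AAV-NC and 55860.2 to 62853 CPM in AAV-TuD livers. The largest part of this sum was *Alb*, with 17185 to 23301 CPM in AAV-NC and 25671 to 33283 CPM in AAV-TuD livers. Its log2 fold change was 0.41 (edgeR adjusted p = 0.0805), so the sum does not describe the hepatocyte genes as a set. Of 12 endothelial genes 0 passed in edgeR, DESeq2 or limma-voom and 0 had an unadjusted p under 0.05, with sums of 324 to 354 and 319.7 to 346 CPM. The median log2 fold change was -0.08 over the periportal, -0.12 over the hepatocyte and -0.03 over the endothelial genes.

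Markers of other cells were higher with AAV-TuD, beside the lower *Cyp2c* copies. This held for 7 of 12 stellate genes (*Dcn* 0.79, *Cygb* 1.11, *Lrat* 0.96), whose sum was 244 to 325 CPM in AAV-NC and 394 to 516 CPM in AAV-TuD livers. It also held for 7 of 12 Kupffer genes (*Vsig4* 0.93, *C1qc* 0.84, *C1qb* 0.98; median 0.82; sums of 390 to 622 and 537 to 721 CPM), 5 of the 6 tested among 12 cholangiocyte genes (*Spp1* 2.20, *Sox9* 0.82, and *Epcam* with means of 0.664 and 2.60 CPM; sums of 26.2 to 52.1 and 56.5 to 92.9 CPM) and 3 of the 4 tested among 15 leukocyte genes (*Lyz2* 1.34, *Cd74* 1.11, *Ptprc* 0.70; 36.9 to 52.9 and 51.2 to 147 CPM). Most of the Kupffer sum was *C6*, which is also among the male genes and had means of 355 and 335 CPM (-0.09), and the other 11 Kupffer genes summed to 133 to 202 and 151 to 419 CPM. *Epcam* had 10 or fewer reads in every AAV-NC liver and entered the test through the AAV-TuD livers. Among genes with over 10 reads in each AAV-NC liver, 6 of 10 stellate, 3 of 4 cholangiocyte and 3 of 3 leukocyte genes were higher. Their part in the *Cyp2c* levels was not tested.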

How the data were processed

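The deposited values are raw counts of reads per gene for each liver, which the authors obtained from QuantSeq 3′ libraries prepared from 500 ng of total RNA. The submitters' processing notes name STAR 2.5.3a, DESeq2 1.38.3 and GRCm38, and the paper also names Rsubread for the counts. Annotation, strand setting and how reads matching several genes were treated are not given in the sources used here. Groups came from the sample labels, no sequencing batch is named, and p values measure the spread between these livers. A gene entered the test if 5 or more livers had over 10 reads (13334 of 13669, all 10 members included). The test was edgeR's quasi-likelihood test (edgeR 4.0.16, R 4.3.3), with TMM scaling, Benjamini-Hochberg adjustment over all genes tested and a threshold of 0.05. In simulated counts for this comparison, 86% of 200 genes changed 2-fold among 13334 were recovered, 100% of the 82 averaging 100 or more reads, and 4.44% of calls were false. The simulated spread followed the trend over expression alone, without the scatter between genes or outlying livers, so recovery in the real livers may be lower.

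The members, gene lists and motifs were chosen with earlier results of these data known, and the lists were written from general knowledge. Named were all members and other *Cyp2c* rows, the electron transfer genes, the 3 genes with the smallest adjusted p per list and direction, and the 5 genes most like the summed *Cyp2c40/67/68/69* level. Other names were chosen after their values were seen. A further motif that was searched is not reported here. Groups of close copies are members joined at 90% identity of aligned coding bases (Biopython 1.88, GENCODE M21), since no protein table was used here. Likeness used log2 CPM with a prior count of 2, genes averaging 50 or more reads, and all 86400 arrangements of livers within groups. This test, the comparison of AAV-NC 8, the list like *Cyp2c37/50/54*, the counts over genes read in each AAV-NC liver and the Kupffer sum without *C6* were added after seeing the data. Alternatives were DESeq2 1.42.0, limma-voom (limma 3.58.1), other scalings and filters, windows of other lengths and each liver left out in turn.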

Additional observations from a re-analysis of the deposited data

Results flagged for a closer look

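The *Cyp2c40* level of AAV-TuD 5 (30.3 CPM) stood apart from the other 5 treated livers (16.9 to 21.4 CPM). Its gap to the next liver was 0.663 of the range of the group, above Dixon's limit for 6 values. It was the only 1 of 26 groups of values checked to pass this limit, where chance gives about 1 in 20, and it still lay below every AAV-NC liver (33.3 CPM or more).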

How the results depend on the processing

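No result changed direction past the threshold. The log2 fold changes of *Cyp2c67*, *Cyp2c68*, *Cyp2c40* and *Cyp2c69* and their sum passed it under every alternative run, the sum at -1.10 to -0.93 with 1 liver left out. *Cyp2c37* did not pass with limma-voom (-0.85) or without AAV-NC 1, 2, 6 or 7 or AAV-TuD 4, 5, 9 or 10 (range over all livers left out -1.19 to -0.80). *Cyp2c44* passed with DESeq2 and with its size factors in edgeR (-0.30 in each) and without AAV-NC 2 or AAV-TuD 9 or 11 (range -0.34 to -0.24). *Cyp2c54* (range -0.81 to -0.43) and the *Cyp2c37/50/54* sum (range -0.47 to -0.13) passed without AAV-NC 8. For these the cause was not tested. Between 4 and 6 members were lower with 1 liver left out. Over all genes 577 were lower and 966 higher with TMM, 751 and 1060 with DESeq2, and 71 and 1386 with library size alone, which moved the higher share of calls from 62.6% to 95.1%. In the fixed lists, library size alone gave 8 lower and 52 higher genes, and leaving out 1 liver 15 to 21 lower and 31 to 43 higher. Unique windows in the *Cyp2c40/67/68/69* and *Cyp2c37/50/54* groups were 46.2% and 71.7% at 50 bases, 73.2% and 97.7% at 100 bases, 83.1% and 100% in the last 300 bases, and 55.7% and 90.2% in the last 1000 bases. An identity of 95% gave the same groups. No paired analysis was possible because the groups compared share no replicate numbers.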
